A study of Homo sapiens with 6 samples.

Results

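The mesenchymal state genes of glioblastoma examined here were CHI3L1, CEBPB, CEBPD, RUNX1, BHLHE40, TGFBI, FN1, TNC, WWTR1 and YAP1, chosen by symbol as 10 of the 58735 genes in the expression table. Their RNA was measured by poly(A)-selected RNA-seq in U251, an established human glioblastoma line. The NC group (n = 3) received sterile deionized water, and the TNF-α group (n = 3) received 10 ng/mL of recombinant human TNF-α, an inflammatory cytokine, for 24 h. Both groups were the same unmodified line in the same medium, and the labels describe the replicates as independent. No immune or other host cells were present in the design, so the data describe the tumor line alone.

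Glioblastoma cells occupy several transcriptional states, and the mesenchymal state is the one marked by wound-healing, matrix and inflammatory genes. C/EBPβ, C/EBPδ, RUNX1 and BHLHE40 are transcription factors described as regulators of this state, and YAP1 and TAZ (the product of WWTR1) are coactivators that bind TEAD factors and are restrained by the Hippo kinases. CHI3L1, TGFBI, FN1 and TNC encode secreted or matrix proteins that serve as its readout. TNF-α, acting through NF-κB, is a known inducer of mesenchymal features in glioma cells, which is the reason for examining these genes in this comparison.

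Values are FPKM, fragments scaled to gene length and library size, as computed by the authors, and differences are on the log2(FPKM + 1) scale, which understates the change of low genes. Depth was similar, with 31992167 to 37897044 reads in genes per library, recovered from the FPKM. TNF-α replicates 2 and 3 stood apart from the other 4 libraries. Genes longer than 8 kb took up 16.6% and 17.9% of the reads there and 28.8% to 29.1% in the remaining libraries, and ribosomal protein genes held 7.30% and 6.26%, against 2.62% to 2.90%. The library size inside the FPKM was 0.693 and 0.759 of the reads in genes in these 2 libraries and 0.925 to 0.959 in the others. No NC library shared this makeup, so within the pooled comparison it cannot be told apart from the treatment, and each result below is given for the libraries separately. Of the 6 neural and glioma markers 5 reached 1 FPKM and S100B did not, with a summed level of 568 to 618 FPKM in the NC group and 675 to 1205 FPKM in the TNF-α group. None of 6 microglia and macrophage, 3 T cell, 2 pericyte or 3 oligodendrocyte markers reached 1 FPKM in any library, and all 3 T cell markers were at 0. Of 4 endothelial markers KDR reached 1 FPKM, and of 3 neuron markers SYT1 and SNAP25 did.

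Promoter sequence is shown first for 3 members on which the results turn, namely CEBPB, which was higher in every TNF-α library, and FN1 and YAP1, which were far lower in TNF-α replicates 2 and 3. The bases lie before both the RefSeq and the GENCODE start of each gene, on GRCh38.p14 and on the strand of the gene. CEBPB is shown at chr20:50190333-50190582 on the plus strand, FN1 at chr2:215436173-215436318 on the minus strand and YAP1 at chr11:102110197-102110446 on the plus strand. Capitals mark matches to the motifs listed after the sequences.
CEBPB: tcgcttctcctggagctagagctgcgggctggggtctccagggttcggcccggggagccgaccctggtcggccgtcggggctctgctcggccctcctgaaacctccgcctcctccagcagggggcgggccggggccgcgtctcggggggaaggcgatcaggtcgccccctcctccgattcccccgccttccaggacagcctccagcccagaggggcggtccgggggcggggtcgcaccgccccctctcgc
FN1: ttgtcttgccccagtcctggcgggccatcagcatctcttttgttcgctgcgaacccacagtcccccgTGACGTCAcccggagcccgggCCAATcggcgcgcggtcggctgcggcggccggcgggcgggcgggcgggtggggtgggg
YAP1: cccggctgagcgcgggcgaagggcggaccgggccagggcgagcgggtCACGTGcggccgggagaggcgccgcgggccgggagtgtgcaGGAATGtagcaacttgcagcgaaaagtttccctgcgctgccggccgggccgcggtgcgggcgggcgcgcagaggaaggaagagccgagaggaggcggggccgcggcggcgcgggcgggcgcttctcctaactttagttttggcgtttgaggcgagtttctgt

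RefSeq promoters were matched for 9 of the 10 members, all but CEBPD. The 250 bases before the RefSeq start were searched on both strands and compared with the same window of 27305 genes. The κB motif, here GGG and TTTCC with any 2 bases between them, which NF-κB binds, was found in 0 of the 9 members and in 1.73% of all promoters. The AP-1 motif TGANTCA was found in 0 of 9 against 6.60%, and the C/EBP motif TTGCNNAA in 0 of 9 against 9.13%. The absence of these letters from so short a window says nothing about binding elsewhere. The TEAD motif GGAATG was present in RUNX1 and YAP1, against 11.9% of all promoters, and lies in capitals in the YAP1 sequence 162 bases before the start. The E-box CACGTG was present in BHLHE40 and YAP1, against 6.49%. The CRE motif TGACGTCA was present in FN1 alone among the 9, 183 bases before the RefSeq start, against 1.77% of all promoters. The CCAAT box stood in FN1 and RUNX1, against 33.0%, and TATAAA in CHI3L1, against 11.1%. The CEBPB window, whose RefSeq start lies upstream of the GENCODE start, held none of the 8 motifs. GC content of the 250-base windows was 75.6% for CEBPB, 76.4% for FN1 and 72.0% for YAP1, where the median of all promoters was 58.0%. The 146 bases printed for FN1 had 74.0%. These 3 promoters were thus alike in base composition, whereas the longest transcript had 66.2% GC for CEBPB, 42.2% for FN1 and 43.5% for YAP1. The RefSeq windows of 3 members, RUNX1, BHLHE40 and WWTR1, lie wholly inside the GENCODE gene and not before its outer end, and those of CHI3L1, TGFBI, FN1 and TNC lie partly inside it, so the matches named for RUNX1, BHLHE40 and CHI3L1 are inside the annotated gene.

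In the control cells the members spanned a wide range of levels. TGFBI was the most abundant at 215 ± 14.4 FPKM (SD, n = 3) and ranked 112 of the 58735 genes. TNC followed at 127 ± 11.4 FPKM, rank 262, and FN1 at 50.1 ± 3.15 FPKM, rank 850. These 3 matrix genes thus stood above all regulators of the set. YAP1 reached 31.3 ± 0.328 FPKM, CEBPB 26.1 ± 0.336, BHLHE40 25.0 ± 0.413 and WWTR1 10.0 ± 0.346. RUNX1 at 5.02 ± 0.0856 FPKM and CEBPD at 3.87 ± 0.712 FPKM were the lowest of the members with substantial expression. No neighbours in this order overlapped over the NC libraries, the closest in proportion to their level being CEBPB (25.8 to 26.5 FPKM) and BHLHE40 (24.6 to 25.4 FPKM). CHI3L1 (ENSG00000133048), which encodes the secreted chitinase-like protein YKL-40 and is often used as a mesenchymal marker in tumors, was practically absent. It had 2, 0 and 0 reads in NC replicates 1 to 3 and 0, 2 and 0 reads in TNF-α replicates 1 to 3. A count of 3 reads, the limit that a count of 0 allows, corresponds to 0.0268 to 0.0363 FPKM in the libraries with 0 reads. This limit covers counting error alone and does not bound the libraries with 2 reads. No fold change is given, and CHI3L1 was not tested.

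**Figure D1:**
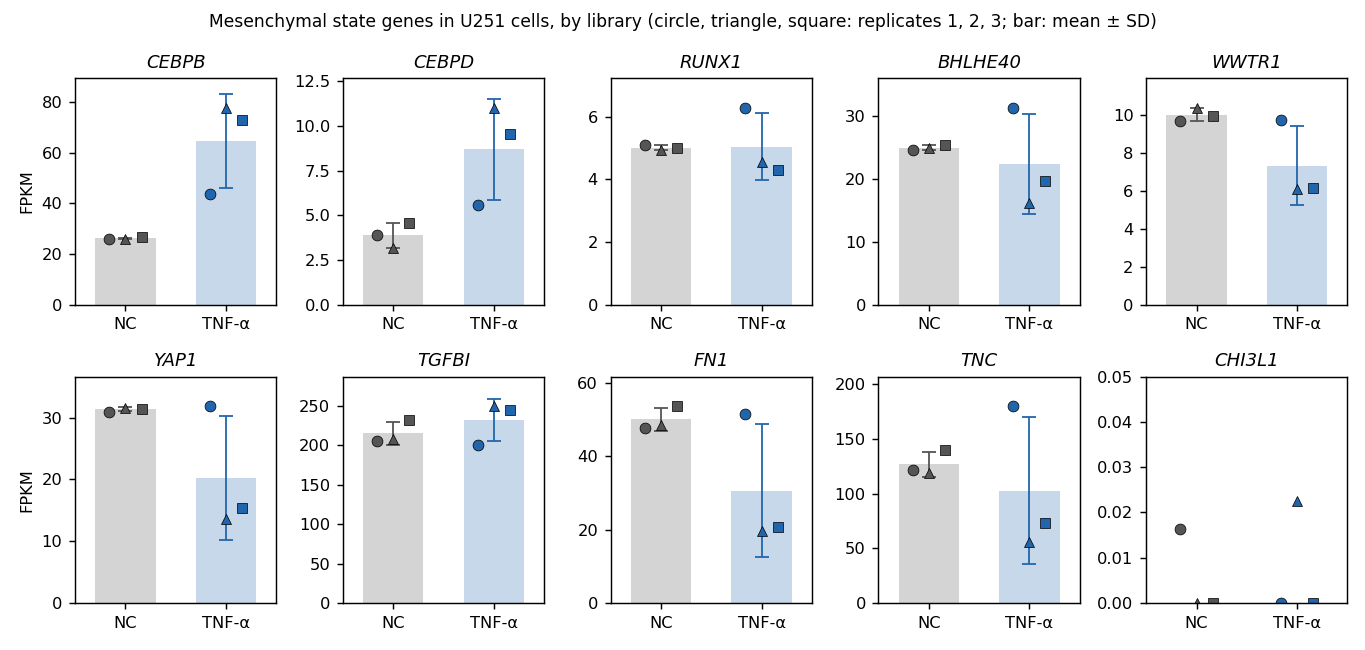
FPKM of the 10 mesenchymal state genes (y axis, from 0, one scale per gene) in the NC and TNF-α groups, with circles, triangles and squares for replicates 1, 2 and 3, and bars and whiskers for the mean ± SD (not drawn for CHI3L1). CEBPB and CEBPD were higher in all 3 TNF-α libraries than in any NC library, whereas YAP1, FN1, TNC, WWTR1 and BHLHE40 were low in TNF-α replicates 2 and 3 (triangle and square) and not in replicate 1 (circle).

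To examine whether TNF-α changed the mesenchymal state genes, the groups were compared with limma across the 12136 genes that reached 1 FPKM in 3 or more of the 6 libraries. Of the 10 members 9 entered the test, and 0 passed an adjusted p of 0.05, where 1.01% of all tested genes did (0.717% with higher and 0.297% with lower values under TNF-α). CEBPB and CEBPD had an unadjusted p under 0.05 (22.2% of the 9, beside 24.2% of all tested genes), and limma-voom on the recovered reads also called 0 of 9. The TNF-α and NC libraries did not overlap for 2 of the 9 members, CEBPB and CEBPD, beside 30.1% of all tested genes. The members moved unlike each other within the TNF-α group as well. In TNF-α replicate 1, 6 of the 9 lay above all NC libraries and 1 below. In each of TNF-α replicates 2 and 3, 3 lay above (CEBPB, CEBPD and TGFBI) and 6 below. For comparison, 30.5% of all tested genes lay above and 34.3% below the NC range in replicate 1, and 49.3% and 43.5% in replicate 2.

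CEBPB (ENSG00000172216, chromosome 20, 50190734 to 50192689, GRCh38) is a gene with a single exon that encodes C/EBPβ, a leucine zipper factor of acute inflammation and a proposed master regulator of the mesenchymal state. It stood at 26.0, 25.8 and 26.5 FPKM in control replicates 1 to 3 and at 43.5, 77.6 and 72.7 FPKM in TNF-α replicates 1 to 3. Every TNF-α library was above every NC library, and TNF-α replicate 1 lay well below the other treated libraries. The log2 fold change was 1.23 ± 0.24 (SE; 95% CI 0.65 to 1.81), with an adjusted p = 0.102 by limma. Quantile normalization brought the estimate to 0.83 with an adjusted p = 0.0244 by limma. In the comparison of TNF-α replicate 1 alone with the NC group the difference was 0.71, with a limma adjusted p = 0.0036, the lone library being assumed to vary like the NC libraries. An antisense gene covers 11.8% of the CEBPB exon, and the library kit did not mark strand, but that gene did not exceed 0.31 FPKM.

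CEBPD (ENSG00000221869, chromosome 8, 47736909 to 47739086, GRCh38), also a gene of 1 exon, encodes C/EBPδ, the acute-phase relative of C/EBPβ. Its levels were 3.90, 3.15 and 4.57 FPKM in control cultures and 5.56, 11.02 and 9.57 FPKM under TNF-α. The groups did not overlap, but TNF-α replicate 1 was closer to the highest NC library than to the other treated libraries. The log2 fold change was 0.96 ± 0.26 (95% CI 0.34 to 1.58; adjusted p = 0.185, limma). CEBPB exceeded CEBPD by 5.79 to 8.21 times in the NC libraries and by 7.04 to 7.83 times in the TNF-α libraries, so that the ratio of these 2 paralogs overlapped between the groups.

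RUNX1 (ENSG00000159216, chromosome 21, 34787801 to 36004667) encodes a DNA-binding partner of CBFβ known from hematopoiesis and listed among mesenchymal regulators in glioma. It measured 5.11, 4.93 and 5.02 FPKM in control cultures and 6.29, 4.56 and 4.32 FPKM under TNF-α. Replicate 1 lay above and replicates 2 and 3 below all controls. The log2 fold change was -0.01 ± 0.16 (95% CI -0.38 to 0.37; adjusted p = 0.979, limma), an average of opposite deviations.

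BHLHE40 (ENSG00000134107, chromosome 3, 4979116 to 4985323) encodes a basic helix-loop-helix repressor that responds to hypoxia and the circadian clock. It was at 24.6, 24.9 and 25.4 FPKM in control cultures and at 31.4, 16.2 and 19.7 FPKM under TNF-α. Here too replicate 1 lay above and the other treated libraries below the controls. The log2 fold change was -0.20 ± 0.24 (95% CI -0.79 to 0.39; adjusted p = 0.528, limma).

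YAP1 (ENSG00000137693, chromosome 11, 102110461 to 102233423) and WWTR1 (ENSG00000018408, chromosome 3, 149517235 to 149736714) encode the paired coactivators of the Hippo pathway. YAP1 was at 31.0, 31.6 and 31.4 FPKM in control cultures and at 31.8, 13.5 and 15.3 FPKM under TNF-α. WWTR1 was at 9.69, 10.4 and 9.95 FPKM in control cultures and at 9.72, 6.09 and 6.17 FPKM under TNF-α. Both genes in TNF-α replicate 1 stood within 0.04 log2 units of the control mean, and both were low in the other treated libraries. The log2 fold changes were -0.71 ± 0.32 for YAP1 (95% CI -1.47 to 0.06) and -0.43 ± 0.19 for WWTR1 (95% CI -0.89 to 0.03), each with an adjusted p = 0.195 by limma. YAP1 exceeded WWTR1 by 3.04 to 3.19 times in the NC group and by 3.27, 2.22 and 2.48 times in TNF-α replicates 1, 2 and 3. Antisense genes cover 9.97% of the YAP1 and 9.45% of the WWTR1 exon length, and none of them exceeded 0.31 FPKM.

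TGFBI (ENSG00000120708, chromosome 5, 136028895 to 136063818) encodes a secreted adhesion protein first found as a TGF-β-induced gene. It measured 206, 208 and 232 FPKM in control cultures and 200.95, 249.5 and 244.9 FPKM under TNF-α. The groups overlapped, and TNF-α replicate 1 was the lowest of all 6 libraries. The log2 fold change of 0.10 ± 0.18 (95% CI -0.32 to 0.53; adjusted p = 0.655, limma) turned to -0.40 with TPM, -0.59 with quantile normalization and -0.17 with voom. TPM and voom also moved the median of all tested genes, from 0.04 to -0.42 and -0.22, so that TGFBI stayed at 0.02 and 0.05 relative to that median, whereas under quantile normalization it lay at -0.60.

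FN1 (ENSG00000115414, chromosome 2, 215360440 to 215436172) encodes fibronectin, the integrin-binding glycoprotein of the matrix. It stood at 47.9, 48.7 and 53.7 FPKM in control cultures and at 51.5, 19.5 and 20.7 FPKM under TNF-α. TNC (ENSG00000041982, chromosome 9, 115019578 to 115118257), which encodes tenascin-C, a matrix protein of wounds and glioma stroma, stood at 122, 119 and 140 FPKM in control cultures and at 180, 55.8 and 72.7 FPKM under TNF-α. The highest and the lowest TNC value of the series thus both came from treated cells. The log2 fold change was -0.84 ± 0.37 for FN1 (95% CI -1.74 to 0.07; adjusted p = 0.195, limma). For TNC it was -0.49 ± 0.43 (95% CI -1.53 to 0.55; adjusted p = 0.393, limma). In TNF-α replicate 1 alone TNC was higher than in the NC group by 0.50 on the log2 scale, with a limma adjusted p = 0.0439, and CEBPB and TNC were the 2 of 9 members called in that comparison (22.2%, beside 6.03% of all tested genes). TNC exceeded FN1 by 2.45 to 2.61 times in the NC libraries and by 3.49, 2.85 and 3.52 times in TNF-α replicates 1 to 3. This ratio was the one of 4 computed that did not overlap between the groups, on values as deposited. The 2 genes differ in makeup, with 9.64 kb of merged exon for TNC and 17.3 kb for FN1. Their longest transcripts have 7641 bases and 54.0% GC for TNC and 9171 bases and 42.2% GC for FN1. After the GC and length correction described below, TNC was at 0.49, -0.82 and -0.45 in TNF-α replicates 1 to 3 as log2 ratios to the NC mean. FN1 was at 0.03, -0.53 and -0.50, so TNC lay below FN1 on this measure in replicate 2 alone. TGFBI exceeded FN1 by 4.26 to 4.32 times in the NC libraries, by 3.90, 12.8 and 11.9 times in TNF-α replicates 1, 2 and 3. In bulk RNA, fewer cells expressing a gene and less RNA per cell cannot be told apart.

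**Figure D2:**
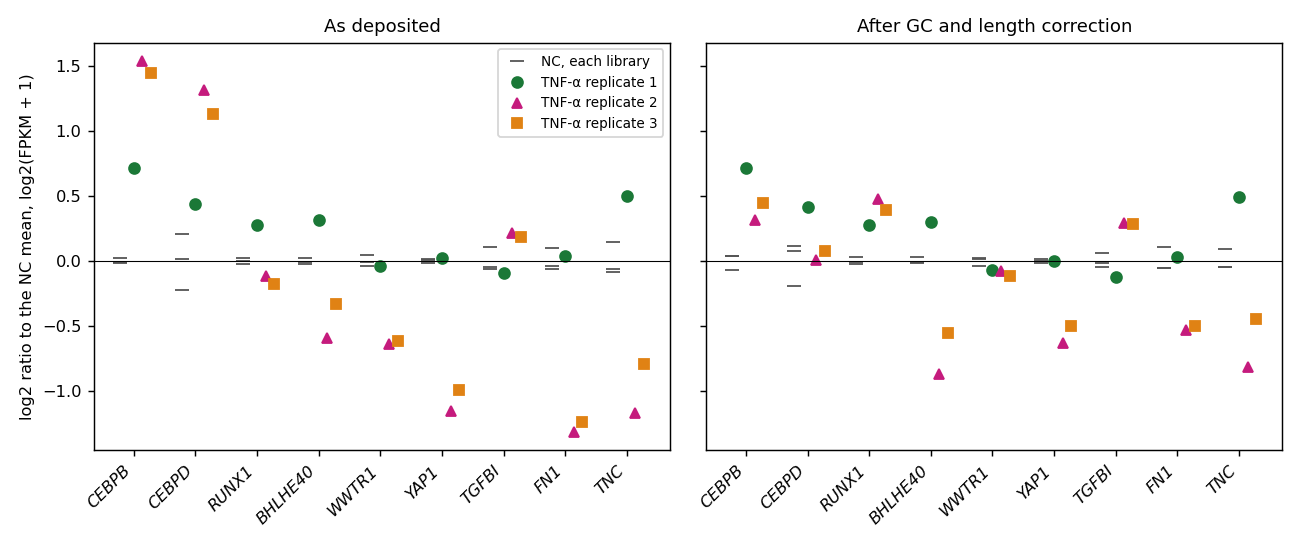
log2 ratio of each library to the NC mean (y axis, log2(FPKM + 1)) for the 9 tested members, as deposited (left) and after removal of the part fitted by GC content and transcript length (right), with dashes for the NC libraries and a symbol for each TNF-α replicate. Correction brought CEBPB from 1.54 to 0.31 in replicate 2 and RUNX1 from -0.12 to 0.48, while CEBPB stayed above the NC libraries in all 3 replicates.

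The members differ in length and base composition, and the treated libraries differed along both. CEBPB and CEBPD have 1.96 and 2.18 kb of exon and 66.2% and 70.0% GC in their longest transcript. FN1 has 17.3 kb and 42.2% GC, WWTR1 8.41 kb and 40.9%, and YAP1 6.30 kb and 43.5%. Of the 3 members above the NC range in TNF-α replicates 2 and 3, CEBPB and CEBPD are short and rich in GC, and TGFBI, with 7.81 kb and 50.6% GC, is neither. Over all tested genes the median log2 ratio in TNF-α replicate 2 was 1.06 for 151 genes with a GC content of 66 to 68% and -0.37 for 1119 genes with 40 to 42%. In TNF-α replicate 1 the same medians were -0.06 and 0.00. In replicate 2 TGFBI, RUNX1, WWTR1 and CEBPD lay within 0.32 log2 units of the median of the genes in their own GC class, 2 percentage points wide. CEBPB was 0.47 above that median. The other members were further below it. TNC, with 54.0% GC, was at -1.17 where its class had a median of 0.31, and FN1 was at -1.31 where its class had -0.21. YAP1 was at -1.15 in the same class as FN1, and BHLHE40, with 52.0% GC, was at -0.59 where its class had 0.24. Against genes of like length the differences of TNC and FN1 in replicate 2 were smaller, at -0.69 and -0.49, and those of YAP1 and BHLHE40 were -0.96 and -0.99.

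**Figure D3:**
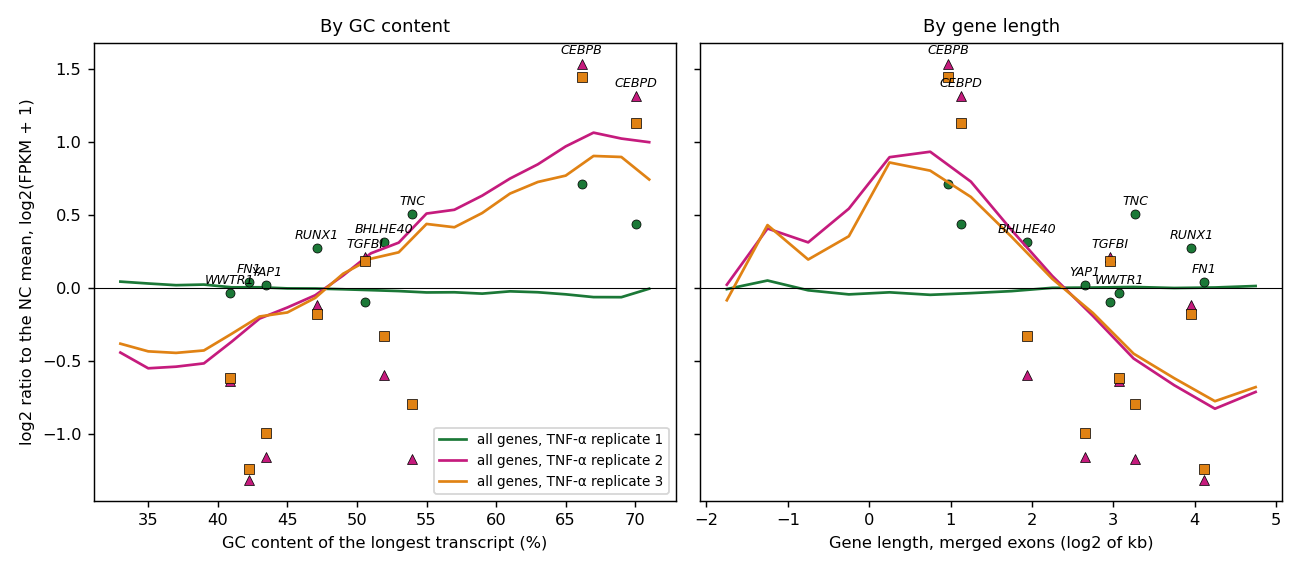
log2 ratio to the NC mean (y axis) against GC content in percent (left) and log2 of gene length in kb (right), with lines for the median over all tested genes in bins and symbols for the 9 members in TNF-α replicates 1 (circle), 2 (triangle) and 3 (square). The lines for replicates 2 and 3 rise with GC content and fall beyond about 2 kb, the line for replicate 1 stays near 0, and TNC, FN1, YAP1 and BHLHE40 lie furthest below both sets of lines in replicates 2 and 3.

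After the fitted effect of GC content and length was removed from every library, 0 of the 9 members passed the threshold, beside 2.79% of all tested genes. CEBPB then had log2 ratios of 0.72, 0.31 and 0.45 in TNF-α replicates 1 to 3, all above the NC libraries, and a log2 fold change of 0.49 (95% CI 0.19 to 0.79; adjusted p = 0.098, limma). CEBPD had ratios of 0.41, 0.01 and 0.08, so that its difference in replicates 2 and 3 was no longer outside the NC libraries. RUNX1 was above the NC libraries in all 3 replicates, with ratios of 0.28, 0.48 and 0.39 and a log2 fold change of 0.38 (95% CI 0.17 to 0.59; adjusted p = 0.0835, limma). WWTR1 came to -0.07, -0.07 and -0.12. FN1 stayed low in replicates 2 and 3 at -0.53 and -0.50, YAP1 at -0.63 and -0.50, TNC at -0.82 and -0.45 and BHLHE40 at -0.87 and -0.56, whereas these 4 genes had ratios of 0.00 to 0.49 in replicate 1. Part of what the correction removes may be a response to the treatment, and how much was not tested. Without TNF-α replicate 1, 7 of 9 members passed the threshold (CEBPB and CEBPD higher, BHLHE40, FN1, TNC, WWTR1 and YAP1 lower), but 79.4% of all tested genes did so as well, and the members' share of 77.8% was near that background.

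**Figure D4:**
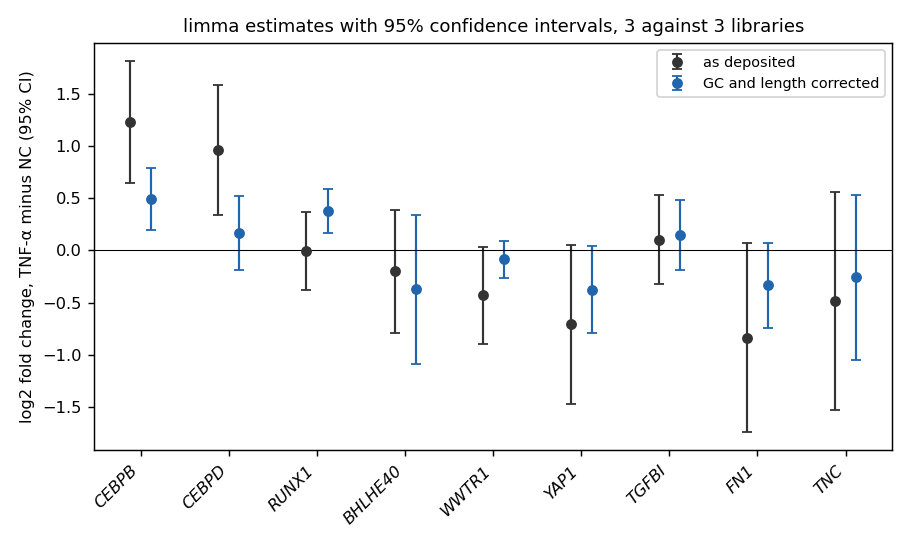
limma log2 fold change of TNF-α minus NC (y axis) with 95% confidence intervals for the 9 tested members, as deposited (black) and after GC and length correction (blue), 3 against 3 libraries. The intervals of CEBPB exclude 0 in both, that of CEBPD as deposited alone and that of RUNX1 after correction alone, and none passed an adjusted p of 0.05.

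To place the members among related genes, 7 lists were read from the same fit. The other mesenchymal signature genes had 33 of 37 genes tested, of which 2 passed the threshold, both higher, beside 1.01% of all tested genes in either direction. SOD2, the mitochondrial superoxide dismutase and a classic NF-κB target, was at 4.22, 4.33 and 4.36 FPKM in control cultures and at 21.7, 12.4 and 13.9 FPKM under TNF-α (log2 fold change 1.64 ± 0.21; adjusted p = 0.0316, limma). GFPT2, an enzyme of the hexosamine pathway, was at 5.09, 5.10 and 4.95 FPKM and at 15.5, 13.4 and 13.8 FPKM (1.33 ± 0.12; adjusted p = 0.0097, limma). Both genes were higher in every treated than in any control library and highest in TNF-α replicate 1. No member had this order in the values as deposited, and CEBPB had it after GC and length correction. The median log2 ratio of the list was 0.08, 1.14 and 1.04 in TNF-α replicates 1, 2 and 3, so the list as a whole was high in the 2 libraries whose read composition also differed. After GC and length correction the median log2 fold change of the list was 0.47 instead of 0.68. In that fit 5 of its genes passed the threshold, 4 of them higher, beside 2.79% of all tested genes in either direction.

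Of the 16 other mesenchymal regulators 14 were tested and 2 passed, both higher. FOSL1, which encodes the AP-1 subunit FRA-1, was abundant at 157, 166 and 181 FPKM in control cultures and 331, 370 and 368 FPKM under TNF-α (1.08 ± 0.16; adjusted p = 0.0498, limma), and after GC and length correction its log2 fold change was 0.45 with an adjusted p = 0.23 by limma. MAFF, a small MAF factor, went from 2.77, 2.09 and 2.59 FPKM to 6.73, 11.4 and 9.73 FPKM (1.54 ± 0.20; adjusted p = 0.0327, limma). The median log2 fold change of -0.07 for the list averaged opposite deviations, with medians of 0.32, -0.37 and -0.16 in the 3 TNF-α replicates in turn, where all tested genes had -0.01, 0.08 and 0.05.

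For the partners of YAP1 and WWTR1, 22 of 22 YAP and TAZ target genes were tested and 1 passed. NUAK2, a kinase of the AMPK family, rose from 10.2, 10.4 and 10.4 FPKM to 25.9, 24.6 and 28.1 FPKM (1.26 ± 0.12; adjusted p = 0.0112, limma). The median of the list was 0.10, -0.43 and -0.28 in TNF-α replicates 1, 2 and 3. Its genes did not move together, as 6 of the 22 had a log2 fold change above 0. After GC and length correction the median log2 fold change was -0.12 instead of -0.21. All 20 Hippo pathway components and TEAD factors were tested and 0 passed, with 4 at an unadjusted p under 0.05, where 24.2% of all tested genes were. Of the 20, 5 had a log2 fold change above 0. After GC and length correction 3 of them passed, 2 higher, beside 2.79% of all tested genes. The median of the list was 0.04, -0.59 and -0.49 in the 3 TNF-α replicates in turn. TEAD1, the DNA-binding partner of both coactivators, was at 25.3, 26.5 and 24.8 FPKM in control cultures and at 26.4, 4.45 and 5.91 FPKM under TNF-α (-1.39 ± 0.59; adjusted p = 0.195, limma). TAOK1, a kinase upstream in the pathway, was at 11.1, 12.3 and 11.4 FPKM and at 11.6, 3.05 and 3.02 FPKM (-1.09 ± 0.45; adjusted p = 0.195, limma). Both repeated the order of YAP1, near the controls in replicate 1 and low in the others, and both are long and poor in GC (10.3 kb and 41.3% for TEAD1, 17.0 kb and 39.5% for TAOK1). After GC and length correction the log2 fold change was -0.91 for TEAD1 (adjusted p = 0.179, limma) and -0.55 for TAOK1 (adjusted p = 0.174, limma).

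Of 15 paralogs or partners of the members 6 were tested and 0 passed, also at an unadjusted p under 0.05. Among the C/EBP genes, CEBPG was at 16.5 to 18.3 FPKM in the NC libraries and 15.99 to 16.6 FPKM in the TNF-α libraries, CEBPA was near 1 FPKM and CEBPE was at or close to 0, so CEBPB and CEBPG were the leading C/EBP transcripts of the control cells. DDIT3, the stress-induced C/EBP relative CHOP, had the largest difference of the list, from 8.15, 7.05 and 7.93 FPKM to 7.83, 24.6 and 20.0 FPKM (0.95 ± 0.39; adjusted p = 0.195, limma), and 39.6% of its exon length overlaps other genes. RUNX2 was at 6.22, 6.95 and 6.42 FPKM and at 7.40, 2.99 and 3.46 FPKM (-0.50 ± 0.29; adjusted p = 0.227, limma), the order of RUNX1 in a steeper form, and RUNX3 did not exceed 0.04 FPKM. BHLHE41 was at 3.37 to 3.66 FPKM in control cultures and at 6.50, 3.44 and 4.01 FPKM under TNF-α. The other chitinase-like genes CHI3L2, CHIT1 and CHIA were at 0 or below 0.08 FPKM, as CHI3L1 was, and POSTN, the relative of TGFBI, and the tenascin gene TNR were at 0 in all libraries.

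Of 16 matrix and CHI3L1 receptors 12 were tested and 1 passed. SDC4, the heparan sulfate proteoglycan syndecan-4 that binds fibronectin, rose from 46.4, 45.3 and 44.9 FPKM to 107, 183 and 167 FPKM (1.68 ± 0.23; adjusted p = 0.0361, limma). Of 25 proneural and astrocyte state genes 9 were tested and 2 passed, both lower. GFAP, the astrocyte intermediate filament, fell from 8.16, 7.10 and 9.47 FPKM to 1.58, 2.60 and 2.39 FPKM (-1.54 ± 0.18; adjusted p = 0.021, limma). PDGFRA, the proneural growth factor receptor, fell from 2.94, 2.71 and 2.75 FPKM to 0.96, 0.31 and 0.49 FPKM (-1.28 ± 0.17; adjusted p = 0.035, limma). PDGFRA was under 1 FPKM in every TNF-α library and met the filter through its NC values alone, so its call is not independent of the filter. Of the exon length of GFAP and PDGFRA 18.4% and 15.8% overlaps other annotated genes. Across the 7 lists 8 of 116 tested genes passed, 6 higher and 2 lower, beside 1.01% of all tested genes, the share that applies to each list. Without any one of the 3 NC libraries, or without TNF-α replicate 3, that count was 0, and without TNF-α replicate 2 it was 2.

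**Figure D5:**
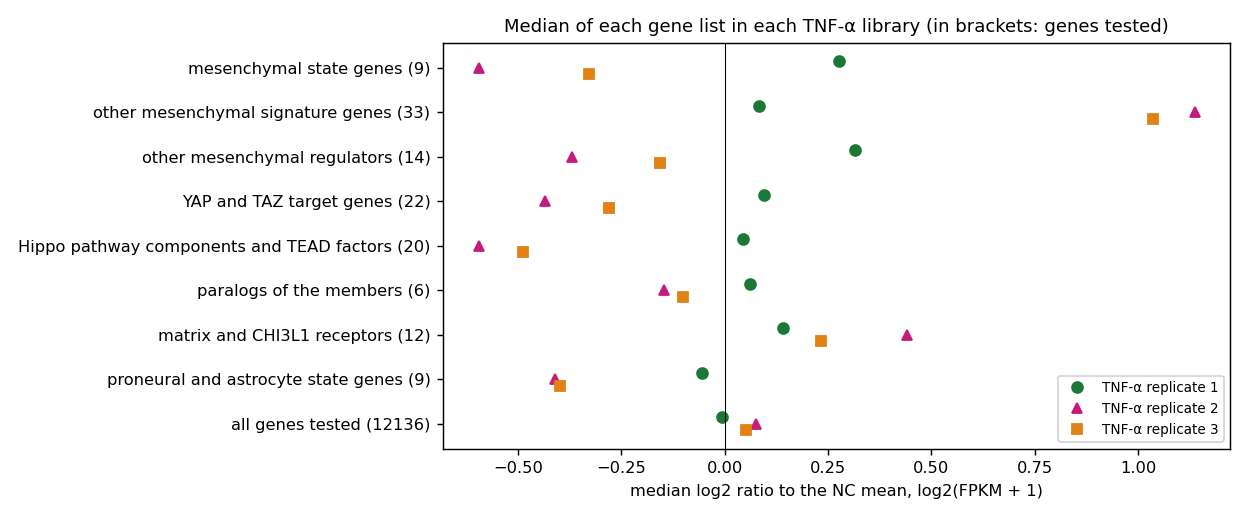
Median log2 ratio to the NC mean (x axis, log2(FPKM + 1)) over the tested genes of each list, with the number of genes tested in brackets and a symbol for each TNF-α replicate. The mesenchymal state genes had a median of 0.28 in replicate 1 and of -0.59 and -0.33 in replicates 2 and 3, and the other mesenchymal signature genes had 0.08, 1.14 and 1.04.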

How the data were processed

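RNA-seq of U251 cells in 6 libraries was analysed, 3 from the NC group and 3 from the TNF-α group, assigned from the sample titles, which also give the replicate numbers. The labels call the replicates independent. The authors deposited gene-level FPKM without pooling or log transformation. Their processing notes name HISAT2 2.0.5, StringTie 1.3.3b and featureCounts 1.5.0, without roles. The 58735 genes and their lengths matched GENCODE release 29 on GRCh38. A further 6 columns of values match no sample described here and were not used. Multiplying by gene length turned 100% of the values into whole reads (tolerance 0.01 reads). Intervals and floors from them cover counting error only.

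Values were tested as log2(FPKM + 1) with limma 3.58.1 in R 4.3.3 (lmFit, eBayes with an intensity trend, two-sided) over 12136 genes reaching 1 FPKM in 3 or more of 6 libraries, adjusted by the Benjamini-Hochberg method, with a threshold of 0.05. GC content and length were removed by natural splines with 5 degrees of freedom each. Promoters came from RefSeq (GRCh38.p14). Tables and plots were made with Python 3.11.15, pandas 2.3.3 and matplotlib 3.10.9, and the fit was tested on simulated data. The members, the 7 lists and the motifs were chosen with earlier results of these data known. Named genes were all members, from each list up to 4 genes past the threshold with the largest difference or, with none, the 2 with the largest difference, and relatives of the members. The 22 alternatives varied the pseudocount, the filter, the normalization, the fit, the libraries and the correction.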

Additional observations from a re-analysis of the deposited data

How the results depend on the processing

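The number of mesenchymal state genes past the threshold was 0 in the reported fit and 1 of 9 with quantile normalization, where 185 of 12136 genes passed. It ranged from 0 to 7 when each library was left out in turn. The 7 came without TNF-α replicate 1, where 79.4% of all tested genes passed. For the context lists the count of 8 became 2 without a filter, 3 with TPM, 26 with TNF-α replicate 1 alone, 3 with voom, 15 with GC and length correction and 2 with that correction and the replicate block, and ranged from 0 to 94 when libraries were left out. The cause of these moves was not tested. Without a filter the fit and the adjustment ran over 31662 genes instead of 12136. With TNF-α replicate 1 alone the log2 fold changes of BHLHE40, FN1, TNC and YAP1 turned to 0.32, 0.042, 0.50 and 0.022, and that of TGFBI to -0.10. TGFBI was -0.40 with TPM, -0.59 with quantile normalization and -0.17 with voom. RUNX1, at -0.01, was 0.074 with quantile normalization, 0.28 with TNF-α replicate 1 alone and 0.38 with GC and length correction, also with the replicate block, and took values from -0.15 to 0.081 when single libraries were left out. CEBPB, CEBPD and WWTR1 kept their direction in all 22 alternatives. Changes of filter, of intensity trend or of replicate block leave a log2 fold change unaltered, so those alternatives kept the direction by construction. Same-numbered libraries of the 2 groups deviated together with r of -0.01, -0.18 and 0.12 over genes. These deviations include the difference of TNF-α replicate 1 from replicates 2 and 3, so they cannot show whether the numbers pair samples. The replicate block gave 0 calls among members and context genes and 24 instead of 123 among all genes. A group of 3 libraries limits each test.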
